A study of Mus musculus with 2 samples.

Results

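Myoglobin and the carbonic anhydrases, proteins that handle oxygen and carbon dioxide in muscle, were compared between slow and fast skeletal muscle fibres of the mouse. The genes listed were Mb, Car2, Car3, Car4, Car5b, Car8, Car11 and Car14, taken by matching the RefSeq accession of each array probe to its gene. Of these 8 genes, 7 had a matched probe, with 9 probes in all, among 23458 genes and 56596 probes on the array. Car5b, which encodes a mitochondrial carbonic anhydrase, had no matched probe and was not analysed here. The genes were selected on the signals and background flags of these same 2 arrays, with their differences between the pools in view, so the values below are a description.

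The study hybridised 2 one-colour arrays, 1 for each pool of single fibres. All fibres came from 8 male mice aged 6 to 8 weeks, heterozygous (G/+) for the GFP-Myh7 allele, which makes fibres with slow myosin fluoresce, and no treatment was given. The fast pool held 4447 fibres without GFP from the extensor digitorum longus (EDL), a shin muscle made mostly of fast fibres, and the slow pool held 1659 fibres with GFP from the soleus, a calf muscle rich in slow fibres. One label puts the slow fibres in the EDL, but the source label and the protocol put them in the soleus. Fibre type and muscle of origin cannot be told apart in this design.

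Myoglobin is the haem protein that stores oxygen in oxidative muscle fibres and carries it towards mitochondria. Carbonic anhydrases are zinc enzymes that interconvert carbon dioxide with bicarbonate and a proton, in the cytosol, in mitochondria or at membranes, and a few relatives have lost the catalytic activity. In muscle these enzymes speed the export of carbon dioxide and acid from working fibres, and the cytosolic form Car3 is known as a protein of slow fibres.

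With 1 array per group there was no replicate and no test between the pools. Each signal is the background-subtracted intensity of a spot in scanner units, and each difference is slow minus fast on the log2 scale after each array was scaled to its 75th percentile. The error given is that of the scanner software for the spot, which had a median of 0.20 for a log2 difference over all genes measured in both pools. It covers neither animals, dissections nor labelling. For bright spots it was the same share of the signal, as with 4849.62 on 48496.2 for Mb and 13753.6 on 137536 for Car3. An error of 0.20 is therefore not a spread measured for that gene. Probes printed repeatedly on the array gave a median SD of 0.05 for the difference between spots. A gene counted as measured where its spot was well above background on both arrays (12846 genes), and a size rule of 2-fold took the place of a test. Of the 59305 spots, 52.3% passed this background flag for the fast pool and 50.9% for the slow pool, and no spot was saturated. The slow motor gene Myh7 was 271-fold higher in the slow pool and the fast motor gene Myh4 2974-fold higher in the fast pool. These differences lay in the direction of the labels. Myh2, another fast motor gene, was only 3.58-fold higher in the fast pool, with signals of 36999 there and 11054 in the slow pool.

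Of the 7 genes with a probe, 4 were past 2-fold towards slow fibres (Mb, Car2, Car3 and Car8) and 2 towards fast fibres (Car11 and Car14), while Car4 was not past 2-fold. Among the 14647 genes well above background in at least 1 pool, 10.8% were past 2-fold towards slow fibres and 14.3% towards fast fibres. Because the genes were picked for this contrast, nothing is read from the distance between those shares and the counts of 4 and 2. Of the genes, 5 were measured in both pools, with a median difference of 1.33, beside 0.05 over all genes measured in both. The median size of their differences without regard to sign was 2.55, against 0.47 over all genes measured in both. The same selection acts on both medians, so nothing is read from these distances either. The median of 1.33 is the value of Mb itself.

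**Figure D1:**
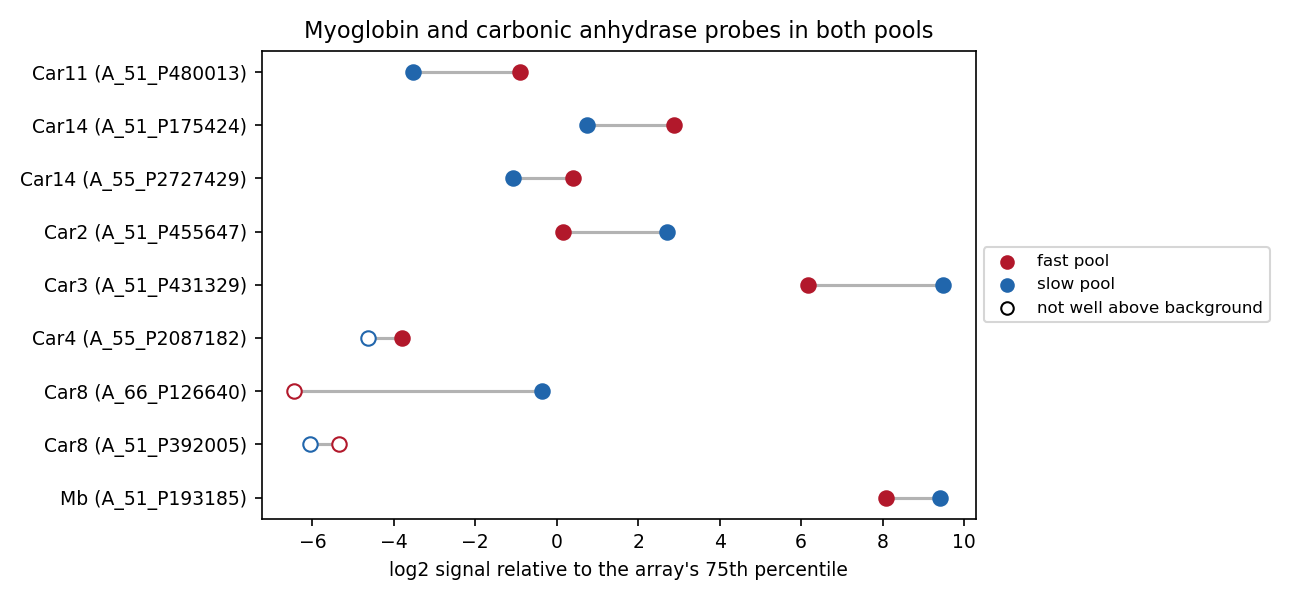
Each row is 1 probe of Mb or a carbonic anhydrase, with the log2 signal relative to the 75th percentile of the array on the horizontal axis, red for the fast pool and blue for the slow pool, and open symbols for spots not well above background. Blue lies to the right of red for Mb, Car2, Car3 and 1 of the 2 Car8 probes, and to the left for Car11, Car4, both Car14 probes and the other Car8 probe, which is open in both pools. Positions of different probes are not comparable with each other, and there was 1 array per pool.

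The oxygen carrier Mb had a signal of 48496 (software error 4850) in the fast pool and of 130950 (13095) in the slow pool. Its single probe was therefore bright in both fibre types and brighter in slow fibres, by 2.52-fold, a log2 difference of 1.33 with a software error of 0.20. Of the 12846 genes measured in both pools, 773 (6.02%) differed at least as far in the slow direction. Over 11 processing settings the log2 difference of Mb ran from 1.13 under loess on mean signal to 1.73 under spike-in scaling, past 2-fold in all 11. The settings for probe rule and dim-probe filter could not change it, as Mb had 1 probe measured in both pools. The genes with the differences nearest to that of Mb were Atg9a, which encodes a lipid scramblase of autophagy, at 1.33 and Cd8b1, a T cell co-receptor chain, at 1.34, a likeness that rests on 2 samples only.

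The promoter of Mb is shown because Mb is the globin that was higher in slow fibres, and E-boxes, the CANNTG sites that myogenic factors can bind, are set in capitals. The RefSeq table of build GRCm38.p6 lists 3 start windows for Mb, and the one printed covers the 250 bases upstream of a start on chromosome 15, minus strand, at chr15:77022788-77023037.

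Mb promoter: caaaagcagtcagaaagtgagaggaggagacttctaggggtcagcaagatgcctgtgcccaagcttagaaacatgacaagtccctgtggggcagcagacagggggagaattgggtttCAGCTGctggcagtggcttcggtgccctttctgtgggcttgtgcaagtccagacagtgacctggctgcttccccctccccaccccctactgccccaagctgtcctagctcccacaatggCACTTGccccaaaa

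It holds 2 E-boxes, and the other listed Mb windows hold 2 and 3. The window with 3 overlaps the printed one and includes its 2 E-boxes, so these are not all separate sites. Of 32544 windows of the same length, 66.2% hold at least 1 (CANNTG reads the same on both strands). Also searched on both strands were the TATA box TATAAA, found in 12.3% of those windows, and the nuclear receptor half-site AAGGTCA, found in 4.1%. The NFAT core GGAAA was found in 55.7%. A loose pattern for the MEF2 site, CTA, any 4 bases and then TAG, was found in 3.2%. It leaves the middle bases free and fixes both ends, so its share is not a share of MEF2 sites. None of these 4 patterns occurred in the Mb window, and whether other forms of the MEF2 site occur there was not tested.

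Car3, the abundant cytosolic carbonic anhydrase of slow fibres, had a signal of 12849 (software error 1285) in the fast pool and 137536 (13754) in the slow pool. At 10.0-fold, a log2 difference of 3.32 with a software error of 0.20, it had the largest difference of the 5 genes measured in both pools. Only 100 of all 12846 measured genes (0.778%) lay as far or farther in the slow direction. The settings gave Car3 log2 differences from 3.13 to 3.71. Nearest to it were Dgat2, an enzyme of triglyceride synthesis, at 3.32 and Mgst1, a microsomal glutathione transferase, at 3.31, again over 2 samples.

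Car2, the highly active cytosolic enzyme that is also abundant in red blood cells, had a signal of 199 (20.0) in the fast pool and 1253 (125) in the slow pool. The slow pool was thus higher by 5.87-fold, a log2 difference of 2.55 with a software error of 0.20, and the settings spanned 2.28 to 2.94. In 1.63% of the measured genes the slow pool was higher by at least as much. On the log2 scale the difference of Car2 was 1.22 above that of Mb and 0.77 below that of Car3, a description of these 2 arrays.

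Car2 and Car3 are neighbours on mouse chromosome 3, in a row that runs Car13, Car1, Car3, Car2 in the RefSeq table, with pseudogenes and a noncoding gene between them that had no matched probe. Car13, another cytosolic enzyme, had signals of 7.89 in the fast pool and 20.5 in the slow pool, and Car1, the low-activity enzyme of red blood cells, 7.73 and 20.3. Both were well above background in the slow pool only. They were 2.43-fold and 2.46-fold higher there by the measured ratio, with log2 software errors of 0.39 and 0.44. These are not bounds, since the fast signals lay above the smallest that passed the background test. All 4 neighbours were therefore higher in slow fibres, Car1 and Car13 by dim signals that fell within 2-fold under normexp background correction, at 0.20 and 0.15 on the log2 scale. A second Car1 probe was not well above background in either pool. On the Car13 side, the nearest coding genes Rbis and E2f5 had log2 differences of 0.20 and 0.36, and the next, Lrrcc1, was 2.41-fold higher in slow fibres.

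Car8 encodes a carbonic anhydrase-related protein without catalytic activity that binds the inositol trisphosphate receptor, the calcium release channel of the endoplasmic reticulum. By probe A_66_P126640 its signal was 2.05 (software error 1.73) in the fast pool, not well above background, and 149 (15.1) in the slow pool. Set against the lowest signal well above background on the fast array, it was 19.4-fold higher in slow fibres (4.27 on the log2 scale). Some fast spots with more signal than that lowest one failed the background test. This fold is therefore a bound by rule and not a strict minimum. The other Car8 probe, A_51_P392005, assigned to the same transcript, was not well above background in either pool, with signals of 4.37 and 2.87. The call for Car8 therefore rests on 1 of its 2 probes, which disagree. Under normexp, a background correction that pulls differences of dim spots towards 0, the log2 bound of A_66_P126640 was 1.65 with the 75th percentile and 1.70 with quantile normalization.

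Car14, a transmembrane carbonic anhydrase that in mouse muscle lies at the surface membrane and the sarcoplasmic reticulum, went the other way. Its brighter probe had a signal of 1320 (132) in the fast pool and 318 (31.9) in the slow pool, and its dimmer probe 236 (23.6) and 90.8 (9.27). Both probes were thus higher in fast fibres, by 4.44-fold and 2.78-fold, or log2 differences of -2.15 and -1.47 with software errors of 0.20 and 0.21. Over the settings Car14 ran from -2.26 in the authors' deposited table to -1.76 under spike-in scaling, with -1.81 for the median over its probes.

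Car11, a secreted relative without catalytic activity, had a signal of 96.3 (9.76) in the fast pool and 16.6 (2.51) in the slow pool. It was 6.20-fold higher in fast fibres, a log2 difference of -2.63 with a software error of 0.26, and 225 measured genes (1.75%) lay as far in that direction, against 392 (3.05%) for Car14. The slow spot of Car11 was dim, with a median pixel intensity of 51.5 over a local background of 26, and normexp brought the log2 difference to -1.15 with the 75th percentile and -1.10 with quantile normalization, still past 2-fold. Car14 stood at -1.95 and -1.98 in those settings, so the order of Car11 and Car14 by size of difference turned under normexp.

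The promoter windows of Car11 and Car14 are shown because both genes were higher in fast fibres, with E-boxes again in capitals. They cover the 250 bases upstream of a RefSeq start in build GRCm38.p6, at chr7:45699554-45699803 on the plus strand for Car11, the first of its 2 listed starts, and at chr3:95904686-95904935 on the minus strand for Car14.
Car11 promoter: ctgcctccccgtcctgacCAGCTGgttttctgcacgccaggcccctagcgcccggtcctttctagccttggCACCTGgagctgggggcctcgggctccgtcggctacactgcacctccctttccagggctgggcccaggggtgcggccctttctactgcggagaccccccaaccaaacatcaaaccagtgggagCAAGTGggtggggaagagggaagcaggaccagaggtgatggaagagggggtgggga
Car14 promoter: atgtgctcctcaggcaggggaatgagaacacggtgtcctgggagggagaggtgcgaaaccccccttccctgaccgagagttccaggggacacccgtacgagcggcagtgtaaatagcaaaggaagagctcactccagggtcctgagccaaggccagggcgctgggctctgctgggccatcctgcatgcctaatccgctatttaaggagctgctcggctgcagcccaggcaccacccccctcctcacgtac

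The Car11 window holds 3 E-boxes and 1 GGAAA match that overlaps none of them, and none of the other motifs. The window of the other Car11 start holds 1 E-box and 1 GGAAA match. It overlaps the printed window, and its E-box is the CAAGTG already counted there. No start window was available for Car2, Car3 and Car8. The Car4 window, not printed, holds 1 GGAAA match and none of the other motifs, and that of Car5b was left out with its gene. The Car14 window holds none of the 5 motifs, which says only that these letters are not in it.

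Car4, an enzyme anchored to the outer cell surface and known from capillary endothelium as well as muscle membranes, was near the limit of detection. Its signal was 12.9 (2.11) in the fast pool, well above background, and 7.72 (2.11) in the slow pool, not well above background. By the same rule it was 1.57-fold higher in fast fibres (-0.65 on the log2 scale), with a software error of 0.46 for the measured difference. It was short of 2-fold in each of the 11 settings, where it ran from -0.84 to -0.17. The median pixel intensities of 49.5 and 41 over local backgrounds of 29 and 26 show how little signal this value rests on.

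**Figure D2:**
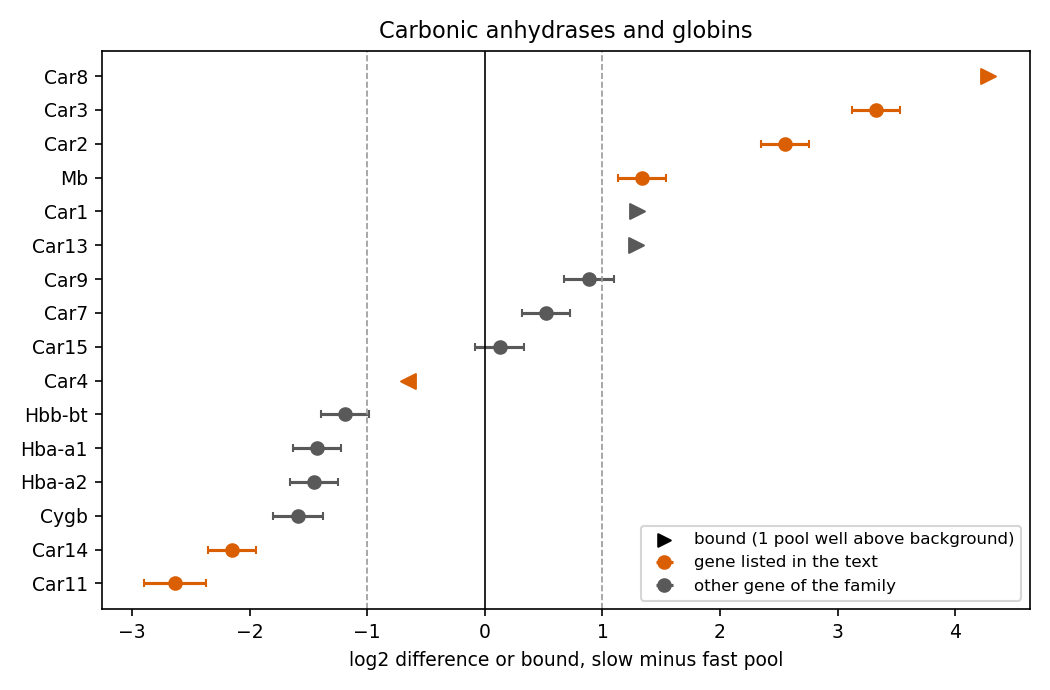
Log2 difference, slow minus fast, of each carbonic anhydrase and globin gene well above background in at least 1 pool, by its brightest probe, in orange for the genes listed at the start and grey for other genes of both families. Bars are the software error of the log2 difference, and dashed lines mark 2-fold. Triangles are genes well above background in 1 pool, as bounds for Car4 and Car8 and measured differences for Car1 and Car13. Car8, Car3, Car2 and Mb lie to the right, while Car11, Car14, Cygb and the blood globins lie to the left.

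Of the 16 genes in the carbonic anhydrase family list, 15 had a probe and 11 were well above background in at least 1 pool, with 5 past 2-fold towards slow fibres, 2 towards fast fibres and 4 short of it. Car9, a transmembrane enzyme induced by low oxygen, had signals of 47.2 and 93.5 in the fast and slow pools, a log2 difference of 0.89, against 0.15 by its dimmer probe. Car7, a cytosolic enzyme of brain and muscle, differed by 0.52 and Car15, a membrane-bound form, by 0.13 on the log2 scale. Car5a, Car6, Car10 and Car12 were not well above background in either pool. Under spike-in scaling Car9 was also past 2-fold, at 1.28, and under both normexp settings Car1 and Car13 were not, leaving 3 in slow fibres.

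Among the globins, Mb was higher in slow fibres and the 4 others measured were higher in fast fibres. Cygb, cytoglobin, a globin of fibroblasts and other cells, had signals of 215 in the fast pool and 76.5 in the slow pool and was 3.01-fold higher in fast fibres. The alpha globins Hba-a1 and Hba-a2 of red blood cells, near-identical copies whose probes may not tell them apart, were 2.69-fold and 2.74-fold higher there, and the beta globin Hbb-bt 2.28-fold. Of 14 listed globins 13 had a probe, and the other 8, namely Ngb, Adgb, Hba-x, Hbq1a, Hbq1b, Hbb-bh1, Hbb-bh2 and Hbb-y, were not well above background in either pool. Hbb-bs had no matched probe. Spike-in scaling brought Hbb-bt to -0.80, within 2-fold.

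Red blood cells carry Car1 and Car2, capillary endothelium carries Car4 and adipocytes carry Car3, so markers of these and other cell types were set beside the genes. In pools of whole fibres, fewer cells of a type and less RNA per cell cannot be told apart. Of 8 erythrocyte markers with a probe, 7 were at least 2-fold higher in the fast pool and 1 in the slow pool (Car1 itself). Their summed level, in units of the 75th percentile signal of each array, was 108.4 in the fast pool and 39.6 in the slow pool. Spike-in scaling left 4 in the fast pool and 1 in the slow pool, and both normexp settings 4 and 0. Car2 was higher in the slow pool, and the part of erythrocytes in its level was not tested.

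Of 8 adipocyte markers, Adipoq, Plin1, Cidec, Retn and Pck1 were not well above background in either pool. Fabp4 was 2.29-fold higher in the fast pool, within 2-fold under spike-in scaling at -0.81 on the log2 scale. Lep differed by 0.21 on that scale. Cfd, well above background in the fast pool only, was 1.66-fold higher there by the rule used for Car8. The summed level was 18.8 in the fast pool and 8.44 in the slow pool, and 0.409 and 0.410 without Fabp4. The part of adipocytes in the level of Car3 was not tested.

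Of 11 endothelial markers, 10 were past 2-fold towards the fast pool, with a median log2 difference of -1.56 and summed levels of 31.6 and 8.33. So were 7 of 8 fibroblast markers, with a median of -1.97 and summed levels of 158 and 39.0. So were 5 of 8 Schwann cell markers, with 1 past 2-fold towards the slow pool, a median of -1.29 and summed levels of 5.67 and 2.36. These markers moved in the direction of Car4, Car11, Car14 and Cygb, and their part in those differences was not tested. Smooth muscle and pericyte markers had 3 of 8 genes higher in the fast pool and 1 in the slow pool, with a median of -0.78. Their summed levels were 793 and 721 with Acta2, the brightest of them, and 13.3 and 6.68 without it. The Acta2 probe had signals of 139689 in the fast pool and 136890 in the slow pool. Whether it reads smooth muscle actin alone was not tested. Under the 2 normexp settings the counts towards the fast pool fell to 7 and 6 for endothelial, 5 and 5 for fibroblast, 2 and 2 for Schwann cell and 2 and 2 for smooth muscle and pericyte markers, with none past 2-fold towards the slow pool. Under spike-in scaling they were 8, 7, 4 and 1.

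**Figure D3:**
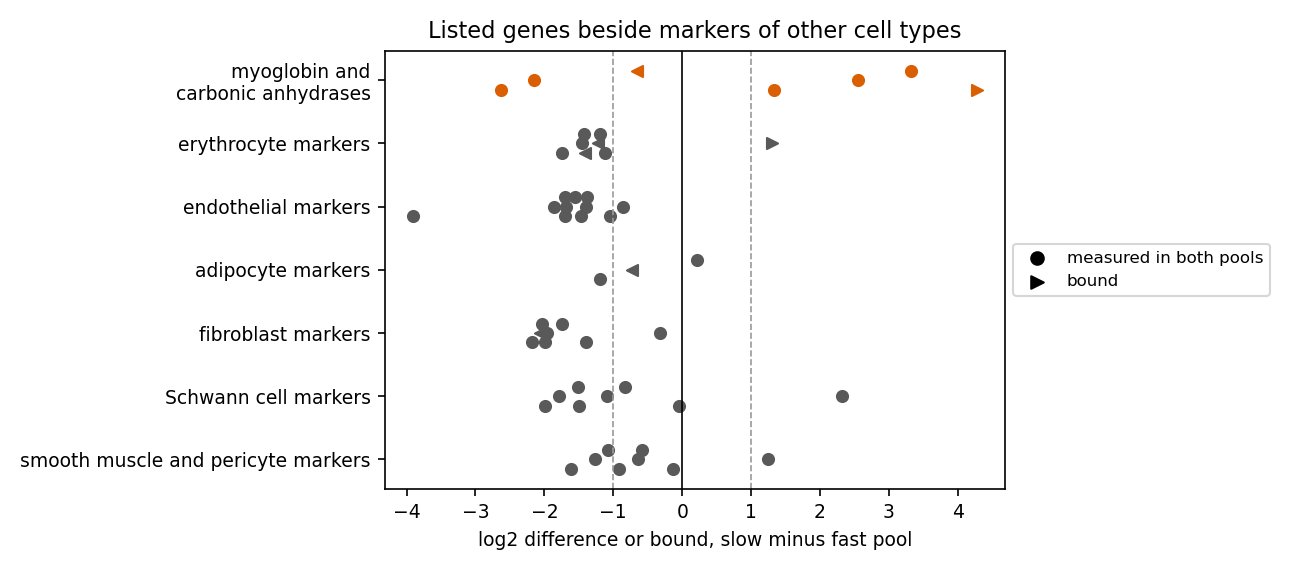
Each point is 1 gene, placed by its log2 difference, slow minus fast. Orange is for Mb and the carbonic anhydrases and grey for markers of other cell types. Triangles are genes well above background in 1 pool, all bounds except for Car1, and dashed lines mark 2-fold. Most grey points lie left of 0, and Mb, Car2, Car3 and Car8 lie to the right of 1.

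Genes of linked functions were counted by the same size rule, from lists written for this comparison. Among 19 genes of bicarbonate, proton and carbon dioxide transport, 13 were well above background in at least 1 pool, with 1 past 2-fold towards slow fibres, 5 towards fast fibres and 7 short of it. Slc4a7, a sodium bicarbonate cotransporter, was 3.81-fold higher in slow fibres. Slc16a3, the lactate and proton exporter of glycolytic fibres, was higher in fast fibres by 36.2-fold. Aqp1, a water channel of endothelium and red blood cells, was higher there by 4.96-fold. The median of the list was -0.36, and 0.03 under spike-in scaling, with 3 genes past 2-fold towards slow and 4 towards fast fibres.

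For haem, which myoglobin binds, 17 genes of synthesis, breakdown and linked transport were listed. All were measured in both pools, and 14 of them were within 2-fold. Alad, the enzyme that makes porphobilinogen, was 3.08-fold higher in slow fibres, and Flvcr1, a haem exporter, 3.01-fold. Alas2, the erythroid form of the entry enzyme, was 2.17-fold higher in fast fibres, among the erythrocyte markers above, but within 2-fold under spike-in scaling and normexp. Alas1, the entry enzyme of other tissues, differed by 0.03 on the log2 scale, with a software error of 0.20. The median of the list was -0.03, and 0.36 under spike-in scaling and 0.002 under median scaling.

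Of 13 genes of iron uptake and storage with a probe, 12 were measured, and 10 were within 2-fold. Slc39a14, a metal importer, was 2.01-fold higher in slow fibres, a call lost in 5 of 8 alternatives for scaling, background and source of values. Slc11a2, a divalent metal transporter, was 2.43-fold higher in fast fibres. Of 10 oxygen-sensing genes 9 were measured, and none was past 2-fold. The farthest from 0 were Egln1, a prolyl hydroxylase of hypoxia-inducible factors, at 0.79 and Vhl, which marks those factors for breakdown, at -0.50 on the log2 scale. Spike-in scaling put Egln1 at 1.18 and Slc11a2 at -0.89.

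**Figure D4:**
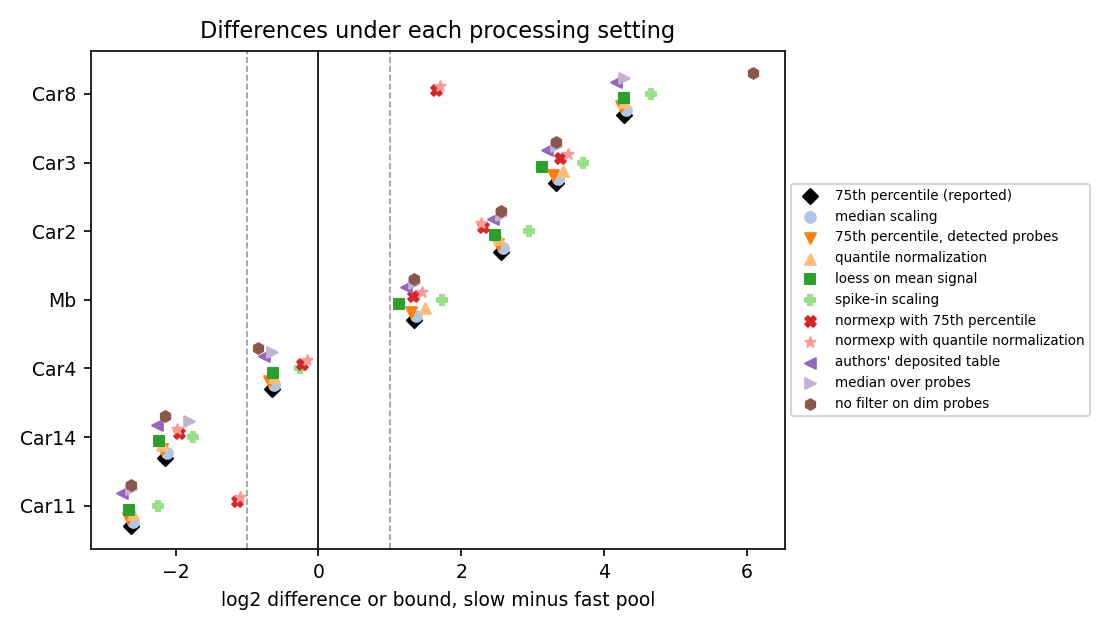
Log2 difference or bound, slow minus fast, of each gene under 11 processing settings, with 1 symbol per setting and dashed lines at 2-fold. Mb, Car2, Car3 and Car8 stay right of 1 and Car11 and Car14 left of -1 in all 11, and the values that move farthest are those of Car8 and Car11 under normexp and of Car8 with no filter on dim probes.

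Scaling to the 8 spike-in controls well above background on both arrays added 0.39 to every log2 difference, since those controls lay between -0.46 and -0.25 under the main scaling. Their signals ran from 30.9 to 232700 on the fast array and from 26.2 to 208760 on the slow array, a range that includes the signals of Mb and Car3. Under that scaling 68.7% of all genes past 2-fold were higher in slow fibres, against 42.9% in the main values, and the 4 genes called in slow fibres and the 2 in fast fibres were called all the same.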

How the data were processed

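RNA of 2 pools of single muscle fibres was labelled with Cy3, starting from 0.1 µg, per the labels' protocols. Per the file headers, the deposited intensities were extracted with Agilent Feature Extraction 12.0.3.1, which subtracted the background and removed spatial trends on each array, with no step between arrays. Flags of 0 or 1 in the deposited files mark spots that pass the background test, are saturated or are outliers. In the authors' deposited value table each linear intensity was 2.83 times the processed signal on the fast array and 2.45 times on the slow array (medians over spots), and the column medians were 30.1 and 27.1. The table is neither logged nor centred, and the basis of the factors is unknown.

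Controls were dropped, as were 159 spots called outliers on at least 1 array, leaving 56596 probes, with repeated spots averaged. Each log2 signal was set relative to the 75th percentile on its own array. Accessions, without versions, matched 33763 probes (59.7%) to 23458 genes of a RefSeq table of assembly GRCm38.p6. The array design refers to mm9, so no gene coordinates are given, and printed promoters carry the build of their RefSeq table. For several probes of a gene, the brightest that passed the background test on either array was used. Where 1 array only was well above background, the fold is the bright value over the dim one. The dim value was raised, where lower, to the smallest signal that passed the background test on its array. A fold with a raised value is called a bound, and otherwise, as for Car1 and Car13, it is the measured ratio. Some spots with more signal than that smallest one failed the background test, so a bound is not a strict minimum. Summed levels add the scaled signals of the chosen probes.

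No test was made, since there was 1 array per group, which limits the precision. Whether the pools of RNA came from separate extractions is not stated. Alternatives changed the scaling, the background correction (normexp, offset 50, on median spot and local background intensities, limma 3.58.1, R 4.3.3), the source of values, the probe rule, the dim-probe filter and the size rule. Loess used a span of 0.3. The scripts, in Python 3.11.15, were tested on simulated data. The genes, lists and alternatives were chosen with earlier results of these data known. Named are all listed genes, every other carbonic anhydrase and globin, and of each other list of functions up to 2 highest and 2 lowest past 2-fold, or the 2 farthest from 0. Also named are the 2 genes nearest in difference to Mb and to Car3, and Myh7 and Myh4. Myh2, Rbis, E2f5, Lrrcc1, Alas1, Acta2 and the adipocyte markers were named after their values were seen. Protein and probe sequences were not used here, and 1 erythrocyte marker is not reported here.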

Additional observations from a re-analysis of the deposited data

How the results depend on the processing

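No paired analysis was possible because each group is 1 pool on 1 array, which also leaves no replicate to leave out. The 4 genes called in slow fibres and the 2 in fast fibres kept direction and call under all 10 alternatives to the main values that change the scaling, background, source, probe rule or filter. The probe rule and filter could not change Mb, Car2, Car3 and Car11, with 1 probe each measured in both pools. For Car8 they used only the probe that was well above background in the slow pool. With a 3-fold size rule 3 were called in slow fibres (Mb was not), and with 1.5-fold 3 in fast fibres (Car4 added). The median difference of the 5 genes measured in both pools, 1.33, was 1.13 under loess and 1.73 under spike-in scaling. Past 2-fold were 1575 genes towards slow and 2093 towards fast fibres, and 2987 and 1360 were under spike-in scaling, 787 and 995 under normexp with the 75th percentile, and 768 and 1007 under normexp with quantile normalization. There were 3111 and 3380 with a 1.5-fold rule and 776 and 1069 with a 3-fold rule, and 2500 and 3091 with no filter on dim probes. The shares of these calls in slow fibres were 42.9% in the main values and 68.7% under spike-in scaling, and the authors' deposited table moved the median of all genes by -0.11. Signal over background limits Car4 and Car11 in the slow pool and Car8, Car1 and Car13 in the fast pool. No single library or batch could be separated, since both arrays are single.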
